A study of Homo sapiens with 12 samples.

Results

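The genes described here are those for the MRPL and MRPS proteins, named as large and small subunit proteins of the mitochondrial ribosome. They were chosen by name alone, as every gene symbol made of MRPL or MRPS, a number and, in the MRPS18 family, a letter. The rule found 78 genes, 49 MRPL and 29 MRPS, of 27130 genes in the table of counts, and 76 of them passed the filter on low counts that 15437 genes passed. The rule itself uses no measured value, but the members were chosen with earlier results of these data known. The cells were of the human embryonic stem cell line H1 (WA01), and poly(A) RNA was sequenced from 12 libraries, 3 in each of 4 groups: wild type, homozygous ZNF263 KO, homozygous ZNF263 KO with ZIC2 overexpression, and ZNF263 overexpression. ZNF263 and ZIC2 both bind DNA through zinc fingers, the submitters call ZIC2 a cofactor, and the stated purpose was to study ZNF263 in the control of pluripotency. Library names of the wild type and of the knockout without ZIC2 hold the letters vec. Names of both knockout groups share a tag that the names of the other groups lack. The labels do not say how many clones carry the knockout, or whether replicates came from separate cultures. The p-values therefore measure the spread between these libraries.

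Mitochondria make a small set of respiratory chain proteins on their own ribosomes. The RNA of these ribosomes comes from mitochondrial DNA, while all of their proteins are coded in the nucleus, made in the cytosol and imported. Some of the proteins descend from bacterial ribosomal proteins, and others are found only in mitochondrial ribosomes. Stem cells in culture need mitochondrial translation to build the respiratory chain although they draw much of their energy from glycolysis.

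Member promoters often held a sequence that ETS-family factors such as GABP bind, or one that YY1 binds, and the promoters of 4 members that changed in the knockout are shown for that reason. They run from 250 bases before to 50 bases after the annotated start in RefSeq's GRCh38.p14, and capitals mark the matches found.
MRPL54 promoter, chr19:3762432-3762731, plus strand: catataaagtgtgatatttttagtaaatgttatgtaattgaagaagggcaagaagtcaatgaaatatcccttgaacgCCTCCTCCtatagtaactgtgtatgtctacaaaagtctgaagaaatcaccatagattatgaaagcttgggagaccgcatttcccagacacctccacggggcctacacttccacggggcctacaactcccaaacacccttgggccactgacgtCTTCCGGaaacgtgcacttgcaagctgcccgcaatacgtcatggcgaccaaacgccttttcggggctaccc
MRPS34 promoter, chr16:1773085-1773384, minus strand: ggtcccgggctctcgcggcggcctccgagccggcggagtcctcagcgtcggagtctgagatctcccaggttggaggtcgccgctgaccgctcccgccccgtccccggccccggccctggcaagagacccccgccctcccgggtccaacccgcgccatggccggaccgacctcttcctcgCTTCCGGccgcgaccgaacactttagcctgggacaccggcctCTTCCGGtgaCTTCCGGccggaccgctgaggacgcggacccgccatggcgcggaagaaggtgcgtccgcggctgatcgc
MRPL42 promoter, chr12:93467264-93467563, plus strand: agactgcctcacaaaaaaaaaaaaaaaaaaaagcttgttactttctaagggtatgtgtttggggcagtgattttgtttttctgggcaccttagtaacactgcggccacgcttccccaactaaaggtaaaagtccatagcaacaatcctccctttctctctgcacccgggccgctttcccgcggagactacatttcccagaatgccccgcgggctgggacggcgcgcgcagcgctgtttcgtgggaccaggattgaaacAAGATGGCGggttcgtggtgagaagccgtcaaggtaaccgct
MRPL50 promoter, chr9:101398569-101398868, minus strand: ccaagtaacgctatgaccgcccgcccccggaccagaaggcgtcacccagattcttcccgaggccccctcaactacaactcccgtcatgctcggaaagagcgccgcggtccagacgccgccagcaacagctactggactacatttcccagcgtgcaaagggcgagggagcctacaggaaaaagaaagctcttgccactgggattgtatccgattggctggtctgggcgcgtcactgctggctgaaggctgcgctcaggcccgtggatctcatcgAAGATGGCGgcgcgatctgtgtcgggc
MRPL54 and MRPS34 rose in the knockout and carry the ETS motif CCGGAAG, read on the other strand as CTTCCGG. MRPS34 holds 3 copies of it, and MRPL54 1 copy with 1 match to the short ZNF263 motif GGAGGAGG. MRPL42 and MRPL50 fell and each carry 1 match to the YY1 motif AANATGGCG, which lies after the start. These 4 promoters were picked for holding an ETS or YY1 match, so that they hold one was fixed by the choice. The promoters of the other members called lower, MRPL19, MRPS25 and MRPS27, had no match to either motif.

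Promoter sequences were found for 70 of the 78 members. On either strand, the ETS motif was in 29 of the 70 member promoters (41.4%), beside 10.7% of all 27305 promoters and 17.9% of the 11912 promoters of tested genes. The YY1 motif was in 18 (25.7%), beside 3.37% of all promoters and 6.27% of those of tested genes. In 16 of those 18 the match began after the start of the gene, and the motif contains the letters of a translation start. A match to one or the other was in 43 member promoters (61.4%), beside 22.8% of those of tested genes, and 4 of the 43 held both. The NRF1 motif GCGCNTGCG, bound by a factor known for its control of mitochondrial genes, was in 11 (15.7%), beside 13.75% of tested genes' promoters. The ZNF263 motif was in 5 (7.14%), beside 13.5%. The median GC content was 60.3% for member promoters and 65.3% for those of tested genes, and no share was adjusted for it. Matches of different motifs did not overlap in any member promoter. Of the 31 member promoters whose gene rose in the knockout, 15 held the ETS motif, 7 the YY1 motif, 5 the NRF1 motif and 1 the ZNF263 motif; of the 37 promoters of other tested members, 14, 9, 6 and 4 did. These are matches of letters, and binding was not measured.

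In 21 of the 76 tested members (27.6%), another tested gene started within 1000 bases upstream on the opposite strand, beside 12.4% of all tested genes. MRPL46 and MRPS11, a large and a small subunit gene, form such a pair with each other on chromosome 15, with 51 bases between their starts. MRPL47 faces NDUFB5, a respiratory complex I subunit gene, across 141 bases, and MRPL32 faces the proteasome gene PSMA2 across 134 bases.

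The 12 libraries held 17175183 to 21804410 counts, except replicate 1 of the knockout with 43464609. Transcripts of ZNF263 were at 39.2 ± 1.35 CPM (counts relative to the scaled library size; SD, n = 3) in wild type and 31.1 ± 0.129 in the knockout, so the knockout is not visible as an absent transcript. ZNF263 was at 32.3 ± 3.15 CPM in the knockout with ZIC2 and 240 ± 18.0 in the ZNF263 overexpression group. ZIC2 was at 209 ± 3.74 CPM in wild type, 156 ± 3.81 in the knockout, 2040 ± 175 with added ZIC2 and 212 ± 4.68 with ZNF263 overexpression. All 8 pluripotency markers examined, POU5F1, SOX2 and NANOG among them, were at 10 CPM or more in every library. Their summed level was 7156 to 7238 CPM in wild type and 7592 to 7647 in the knockout. It was 7181 to 7272 CPM with added ZIC2 and 7323 to 7511 with ZNF263 overexpression. The summed level of 5 fibroblast markers was 148 to 158 CPM in wild type, 202 to 213 in the knockout, 304 to 356 with added ZIC2 and 143 to 148 with ZNF263 overexpression, with 3 of the 5 under 1 CPM everywhere. The sum of 4 neuroectoderm markers, 2 of them under 1 CPM everywhere, was 41.1 to 51.6 CPM in wild type, 20.2 to 24.8 in the knockout, 26.9 to 33.2 with added ZIC2 and 49.1 to 52.0 with ZNF263 overexpression. That sum was mostly MAP2, at 17.6 to 49.9 CPM over the libraries, with PAX6 at 1.73 to 2.80. Sums of 4 mesoderm, 4 endoderm and 4 trophoblast markers were at most 3.48, 7.17 and 8.36 CPM in any library. In bulk RNA, fewer cells of a type and less RNA per cell cannot be told apart, and the part of these markers in the members' changes was not tested.

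Member transcripts together took 0.490% to 0.518% of the counts of a wild-type library, 0.508% to 0.560% in the knockout, 0.512% to 0.530% in the knockout with ZIC2 and 0.505% to 0.512% in the overexpression group. Per length, as RPKM (CPM divided by the gene's length in kilobases) averaged over the 12 libraries, the 76 tested members ran from 6.46 to 211 with a median of 44.5. The large subunit median was 45.5 and the small subunit median 42.9. MRPL51 (211), MRPS34 (189), MRPL3 (151) and MRPL12 (124) were the highest by RPKM. MRPL3 sits in the core of the large subunit, MRPL12 forms the stalk that recruits translation factors, and MRPL51 and MRPS34 are specific to mitochondrial ribosomes. MRPL40 (6.46), MRPS11 (8.31), MRPS25 (10.95) and MRPL19 (11.8) had the lowest RPKM among those tested.

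MRPS18B and MRPS24 did not pass the filter. MRPS18B, 1 of 3 MRPS18 paralogues, had 1 count in all libraries together, and its entry in the count table lists exons on 7 sequences, chromosome 6 and 6 alternative versions of that region. MRPS24 had 44 counts in all, 1 to 7 per library, and 606 of its 696 exon bases are shared on the same strand with the read-through gene URGCP-MRPS24, which had 0 counts. The column names mark the alignments as unique, and why the counts of MRPS18B and MRPS24 were so low was not tested. These values are not taken as the levels of those genes. RefSeq lists 106 pseudogenes named after 42 of the members, whose reads may be divided or lost in counting.

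In the ZNF263 knockout, genes of the mitochondrial ribosome were mostly higher than in wild type, by small amounts. Of the 76 tested members 35 were called higher and 5 lower at an adjusted p under 0.05 (edgeR quasi-likelihood test, Benjamini-Hochberg over all 15437 genes), beside 38.6% of all genes called, 20% higher and 18.5% lower. The median log2 fold change of the members was 0.14, beside -0.010 over all genes, and 57 of the 76 were above 0. Called members changed by 1.07-fold to 1.31-fold. All 3 knockout libraries lay above all 3 wild-type libraries in 33 members, beside 23.6% of all genes. They lay below all 3 in 9 members, beside 3565 of 15437 genes. The members' changes ran with the GC content of their transcripts. When each library's trend with GC content and length was removed, 23 members were called higher and 5 lower, beside 16.4% and 13.7% of 14696 genes, with a median of 0.042; 19 of the rises and 2 of the falls were in both sets of calls. With scaling by total counts the split was 27 higher to 9 lower.

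Library by library, the median member stood above the wild-type mean by 0.065, 0.24 and 0.10 on the log2 scale in knockout replicates 1, 2 and 3. Wild-type replicates stood at 0.054, -0.021 and -0.035, so that wild-type replicate 1 came close to knockout replicate 1. Medians of the knockout with ZIC2 were 0.11, 0.12 and 0.071, and those of the overexpression group 0.012, 0.029 and 0.037. Knockout replicate 2 was the highest of the 12, and without it 26 members were called higher with a median of 0.089. The same library was highest for cytosolic ribosomal protein genes (median 0.31) and respiratory chain genes (0.29). With the GC and length trend removed, its median was 0.076 and that of the other knockout libraries 0.018 and 0.036. The part of GC content in the rise was not tested.

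**Figure D1:**
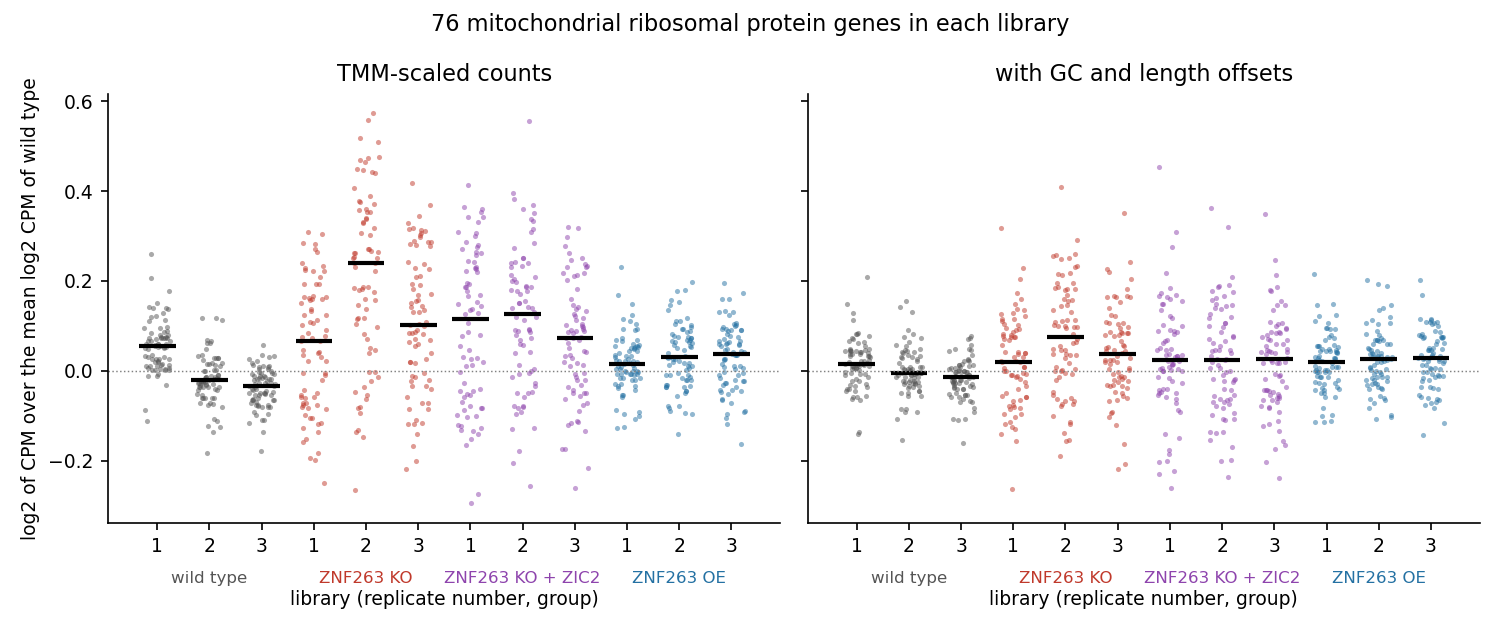
Each point is 1 of the 76 tested members in 1 library, as the log2 of its CPM over the mean of log2 CPM in wild type; bars mark the median of a library, on scaled counts (left) and with GC and length offsets (right). Knockout replicate 2 has the highest median, 0.24 on the left and 0.076 on the right.

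Subunits are assigned here by symbol alone, MRPL as large and MRPS as small, and places in the ribosome's structure were not checked. Of the large subunit genes 25 rose and 3 fell among 49, with a median of 0.15. Of the small subunit genes 10 rose and 2 fell among 27, with a median of 0.058. With GC and length offsets the large subunit had 15 higher and 2 lower (median 0.030) and the small subunit 8 higher and 3 lower (median 0.054), so the order of the medians turned. The median GC content was 51.5% for large and 47.3% for small subunit members. Among the 45 tested members listed with a bacterial counterpart 23 rose and 1 fell. Among the 27 listed as specific to mitochondrial ribosomes 11 rose and 4 fell. MRPL55, MRPL57, MRPL58 and MRPS36 were put in neither class, and of these MRPL55 was called higher. With the offsets the counts were 16 higher and 4 lower for the first class and 6 higher and 1 lower for the second, so the class with more falls turned. Over all genes 20% were called higher and 18.5% lower, and 16.4% and 13.7% with the offsets. The counts of falls are small, and a difference between these classes was not tested. MRPS36, which later work places in the 2-oxoglutarate dehydrogenase complex and not in the ribosome, was at 0.041 (adjusted p = 0.721), and MRPL58, a ribosome-bound peptidyl-tRNA hydrolase, at 0.13 (adjusted p = 0.169). Both were chosen for these roles after their values were seen.

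The largest rise was that of MRPL23, a protein beside the exit tunnel of the large subunit, on chromosome 11 (hg19, 1968502 to 1977839, plus strand). It was at 40.0, 34.8 and 34.3 CPM in wild type, 44.96, 50.4 and 48.5 in the knockout, 46.4, 45.7 and 42.6 with added ZIC2 and 38.0, 39.2 and 39.8 with ZNF263 overexpression. Each knockout library was above each wild-type library, wild-type replicate 1 being the nearest. The log2 fold change was 0.40 (SE 0.060, adjusted p = 1.95e-05), and 0.13 with GC and length offsets (adjusted p = 0.0365). MRPL12, the stalk protein, was at 114, 106 and 110 CPM in wild type, 136, 162 and 137 in the knockout, 139, 136 and 128 with ZIC2 and 114, 114 and 114 with overexpression. Knockout replicate 2 stood apart from the other 2, and no library of either knockout group reached down to wild type. Its log2 fold change was 0.39 (SE 0.054, adjusted p = 6.07e-06), and 0.12 with the offsets (adjusted p = 0.00801).

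MRPL54, a mitochondria-specific large subunit protein, was at 28.1, 25.9 and 22.4 CPM in wild type, 29.6, 37.7 and 32.2 in the knockout, 31.4, 29.8 and 30.8 with ZIC2 and 28.1, 26.1 and 27.2 with overexpression. Its wild-type libraries spread widely and the lowest knockout library lay just above the highest of them. Its log2 fold change of 0.37 (SE 0.080, adjusted p = 0.000815) became 0.088 with the offsets and lost its call (adjusted p = 0.304). MRPS34, a small subunit protein found only in mitochondria, was at 177, 166 and 168 CPM in wild type, 206, 242 and 211 in the knockout, 210, 222 and 200 with ZIC2 and 168, 178 and 177 with overexpression. All 6 knockout libraries, with or without ZIC2, were above all 6 others. The change was 0.36 (SE 0.052, adjusted p = 8.42e-06), and 0.087 with the offsets (adjusted p = 0.0260). MRPL2, a core protein of the large subunit near the peptidyl transferase centre, was at 39.8, 39.9 and 39.2 CPM in wild type, 46.5, 55.0 and 51.2 in the knockout, 50.9, 52.1 and 47.0 with ZIC2 and 46.5, 44.8 and 43.4 with overexpression. Here the overexpression libraries also lay above all wild-type libraries, which agreed closely with each other. The change in the knockout was 0.35 (SE 0.058, adjusted p = 5.66e-05), and 0.17 with the offsets (adjusted p = 0.00619).

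The next 3 rises were MRPL4 at 0.34, a protein of the exit tunnel, MRPL14 at 0.34, which lies at the face that meets the small subunit, and MRPS12 at 0.32, a protein of the decoding centre. With the offsets MRPL4 was at 0.17 and MRPL14 at 0.18, both called, and MRPS12 at 0.10, not called (adjusted p = 0.0683). These 8 were called higher in each fit that left out 1 knockout or wild-type library. MRPL51, the member with the highest RPKM, rose by 0.23 on the log2 scale (SE 0.047, adjusted p = 0.000414), from 129 ± 7.62 to 152 ± 9.69 CPM (SD, n = 3). MRPL40 at 0.19 (adjusted p = 0.0495) and MRPS11 at 0.16 (adjusted p = 0.0200) were called higher as well. MRPL40 lost its call without each of the libraries of either group except wild-type replicate 2, and MRPS11 did so at an adjusted p of 0.0670 when knockout replicate 3 was left out and of 0.148 without the third wild-type library.

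Falls were fewer and smaller. MRPL42, a mitochondria-specific large subunit protein, was at 119, 112 and 114 CPM in wild type, 96.6, 104 and 98.7 in the knockout, 93.7, 99.7 and 98.9 with ZIC2 and 108, 108 and 107 with overexpression. The lowest wild-type library was above every library of the other 3 groups. The change was -0.20 (SE 0.042, adjusted p = 0.000476), but -0.036 with the offsets (adjusted p = 0.487). MRPL19, a protein at the boundary between the subunits, was at 101, 100 and 100 CPM in wild type, 90.0, 83.6 and 87.4 in the knockout, 83.0, 84.1 and 89.1 with ZIC2 and 99.3, 97.9 and 89.8 with overexpression. The wild-type libraries were within 1 CPM of each other and above all the rest. Its change was -0.20 (SE 0.045, adjusted p = 0.000981), and -0.10 with the offsets (adjusted p = 0.0422), 1 of the 2 falls called in both fits.

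MRPL50, another protein specific to mitochondrial ribosomes, was at 62.5, 60.6 and 56.9 CPM in wild type, 52.4, 57.7 and 54.3 in the knockout, 55.1, 56.8 and 54.6 with ZIC2 and 59.6, 56.8 and 57.1 with overexpression. Knockout replicate 2 was above wild-type replicate 3, so the groups overlapped. The change of -0.13 (SE 0.049, adjusted p = 0.0321) was not called when knockout replicate 1 or 3 was left out (adjusted p = 0.150 and 0.0754), nor when wild-type replicate 1 or 2 was (0.126 and 0.0904), nor with the offsets (-0.056, adjusted p = 0.309). MRPS25, a mitochondria-specific small subunit protein, was at 62.9, 64.0 and 60.6 CPM in wild type, 57.5, 56.4 and 57.9 in the knockout, 57.0, 55.2 and 57.7 with ZIC2 and 63.4, 60.9 and 63.5 with overexpression. All 6 libraries with the knockout were under all 6 without it. The change was -0.12 (SE 0.043, adjusted p = 0.0246), and -0.10 with the offsets (adjusted p = 0.0450); its adjusted p was 0.0526 once knockout replicate 2 was dropped, and 0.0525 or 0.0939 once wild-type replicate 1 or 2 was. MRPS27, a small subunit protein with pentatricopeptide repeats, was at 116, 121 and 111 CPM in wild type, 108, 106 and 110 in the knockout, 104, 108 and 107 with ZIC2 and 115, 113 and 116 with overexpression. The groups nearly touched. Its change of -0.10 (SE 0.040, adjusted p = 0.0463) missed the threshold when knockout replicate 1, 2 or 3 was left out (adjusted p = 0.0771, 0.0907 and 0.0510), when wild-type replicate 1 or 2 was (0.0763 and 0.220), and with the offsets (-0.028, adjusted p = 0.588).

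**Figure D2:**
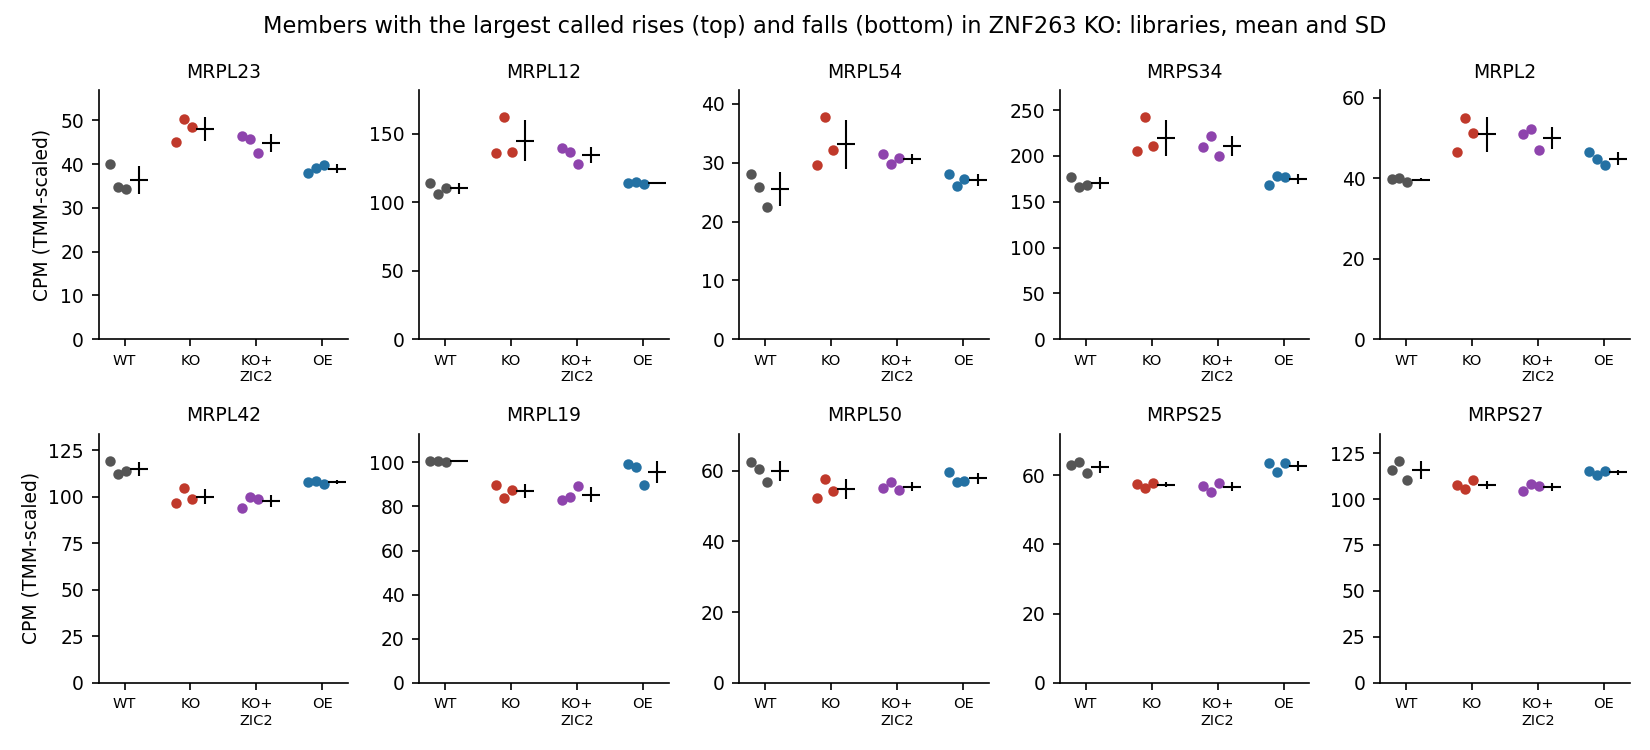
CPM on scaled library sizes in each of the 12 libraries for the 5 members with the largest called rises (top row) and the 5 called falls (bottom row) in the knockout, with the mean and SD of each group of 3. MRPL12 goes from 110 ± 4.16 in wild type to 145 ± 14.8 in the knockout and MRPL42 from 115 ± 3.80 to 99.96 ± 4.09.

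**Figure D3:**
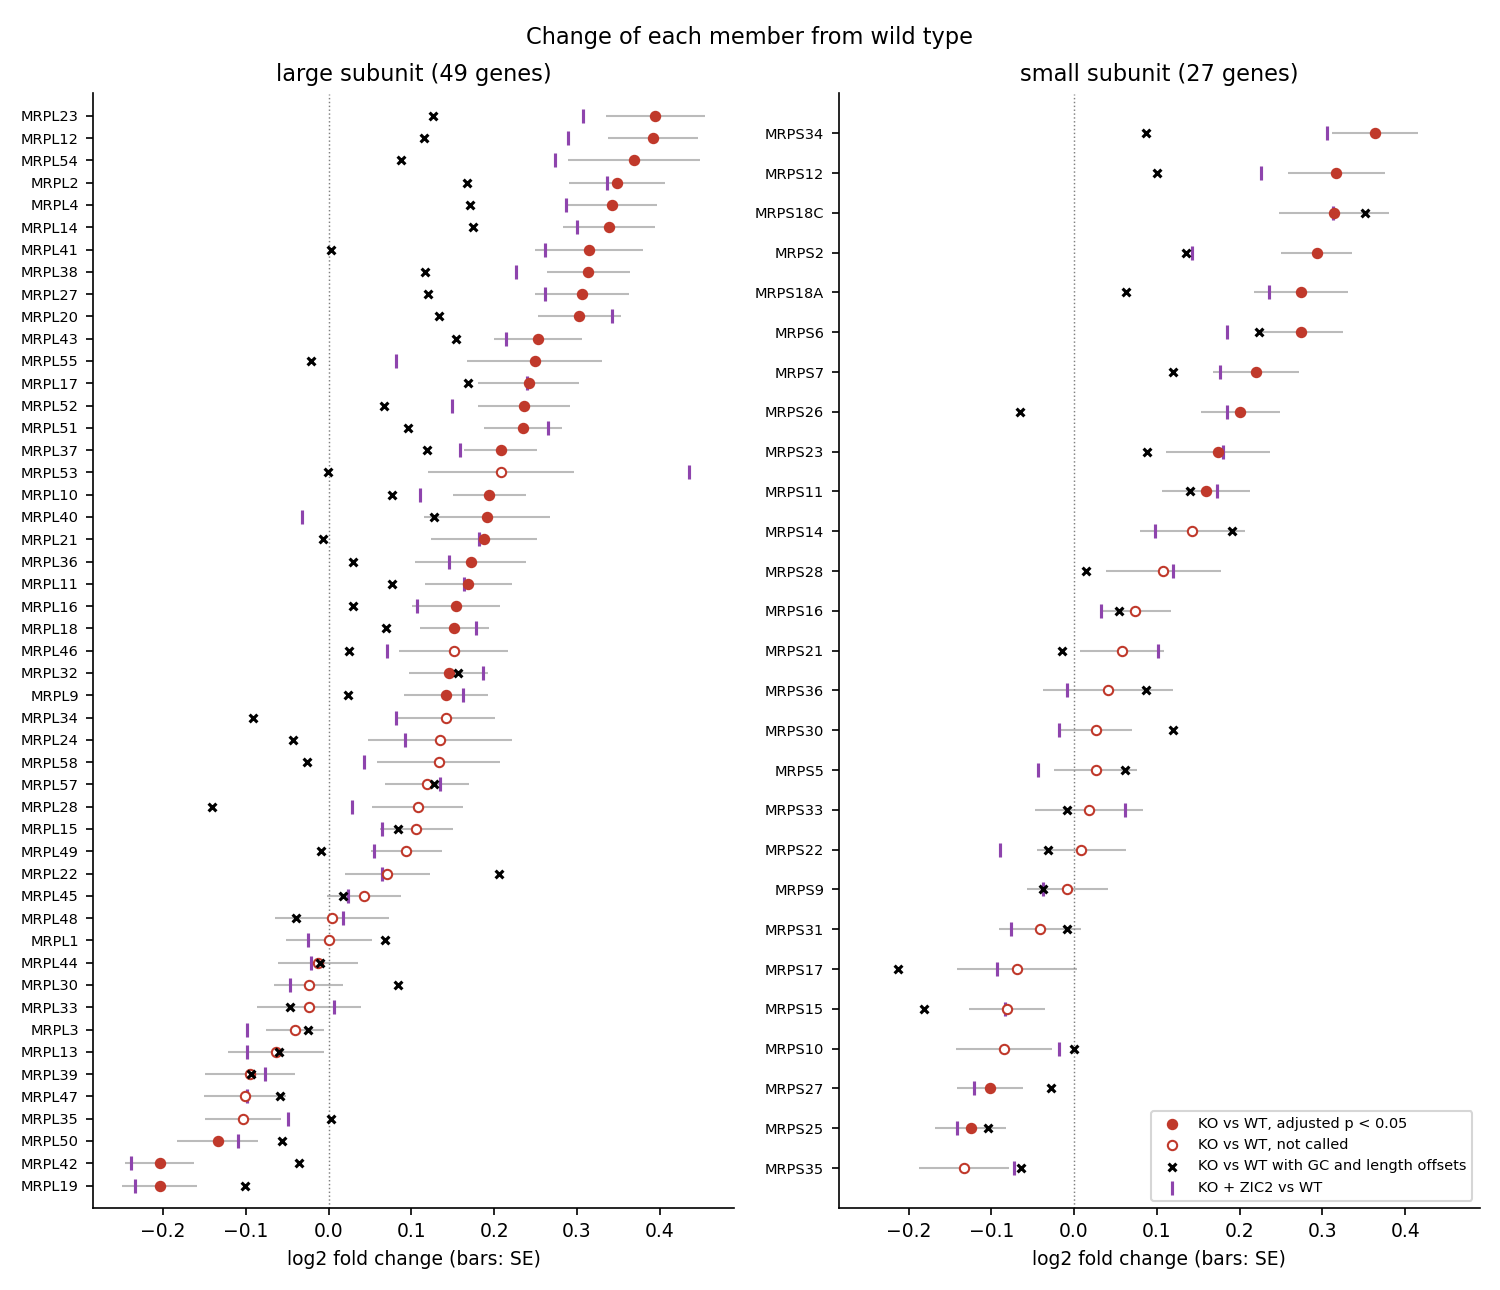
Log2 fold change against wild type of the 49 large and 27 small subunit members, ordered by the knockout value; circles with SE bars are the knockout, crosses the knockout with GC and length offsets, purple ticks the knockout with ZIC2. Most circles lie right of 0, from -0.20 for MRPL42 and MRPL19 to 0.40 for MRPL23, and most crosses of risen members lie closer to 0.

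Rises in the knockout were most frequent among the members with GC-rich transcripts, as they were among other genes. Tested genes were divided into 5 quintiles by the GC content of their transcripts. From the lowest to the highest quintile, 2 of 16, 1 of 15, 9 of 17, 12 of 15 and 11 of 13 members were called higher in the knockout, and 2, 2, 1, 0 and 0 were called lower. Of other genes in these quintiles, 3.97%, 8.79%, 17.5%, 29.9% and 41.2% were called higher. The members' median log2 fold changes were -0.033, 0.004, 0.15, 0.24 and 0.32. Other genes of the same quintiles had medians of -0.15, -0.077, 0.005, 0.087 and 0.17, so the members' median was the higher one in every quintile. The quintiles were not matched for length, and members were shorter, with a median of 1349 bases against 3303 over all tested genes. Spearman's rho of the knockout change with GC content was 0.76 over the 76 members and 0.42 over 14696 genes. With transcript length it was -0.29 over the members and -0.25 over the 14696 genes. These are correlations across genes that share the same 6 libraries. Other genes of the highest GC quintile had library medians of 0.15 to 0.19 in the knockout and 0.15 to 0.20 in the knockout with ZIC2, against -0.019 to 0.010 in wild type and 0.027 to 0.055 in the overexpression group.

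**Figure D4:**
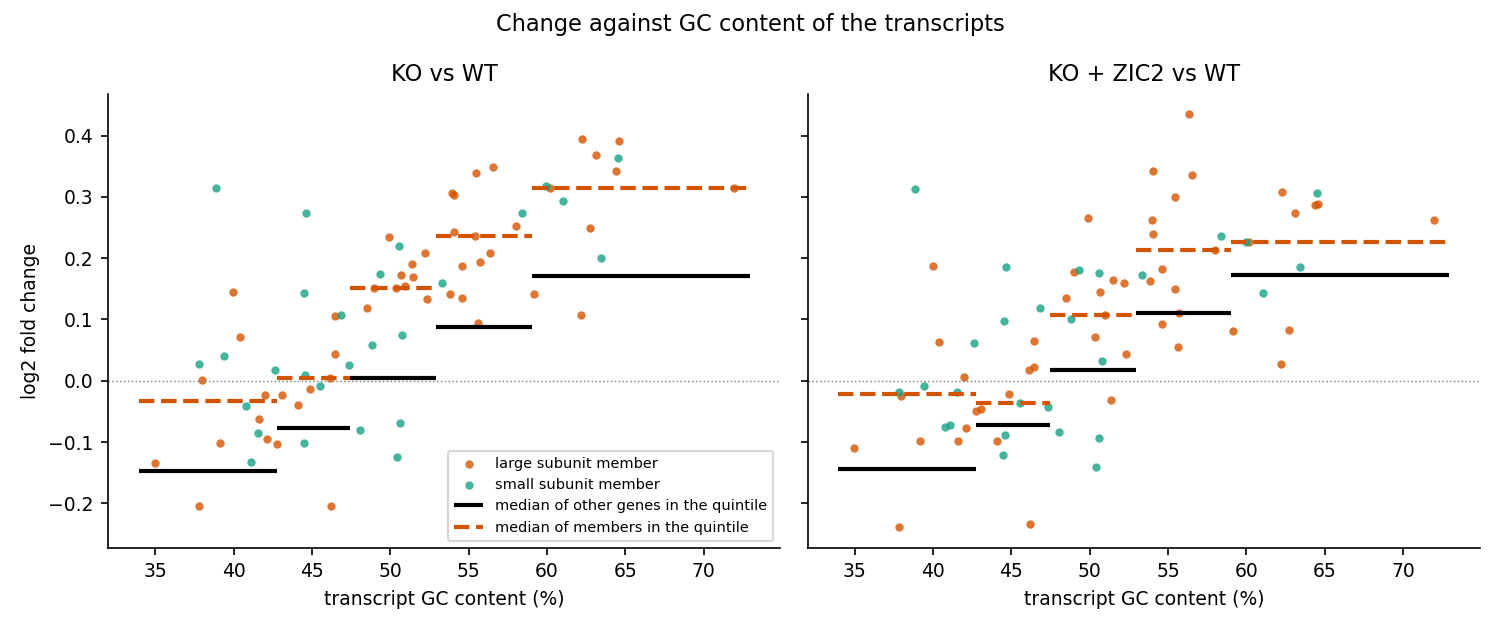
Log2 fold change of each tested member against the GC content of its transcripts, for the knockout (left) and the knockout with ZIC2 (right), both against wild type. Black bars are medians of other genes in each quintile of GC content and dashed bars medians of the members, which rise from -0.033 to 0.32 in the knockout.

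After GC and length were taken into account, the members with the largest changes in the knockout were others. MRPS18C, an MRPS18 paralogue of the small subunit, had a GC content of 38.9% and was at 24.5 ± 1.60 CPM in wild type, 30.7 ± 2.45 in the knockout and 30.4 ± 0.937 with ZIC2 (SD, n = 3). Its change was 0.31 (adjusted p = 0.000667) on scaled counts and 0.35 with the offsets (adjusted p = 1.3e-05). The library kit does not mark strand, and 663 of the 1101 exon bases of MRPS18C overlap FAM175A on the opposite strand, so reads of both genes cannot be told apart there. MRPS6, a small subunit protein that shares 223 of its 990 exon bases with SLC5A3 on the same strand, was at 0.27 and 0.22 with the offsets (adjusted p = 6.8e-05). MRPL22, a protein of the exit tunnel, was at 0.071 (adjusted p = 0.296) and 0.21 with the offsets (adjusted p = 0.00186), and MRPS14 at 0.14 (adjusted p = 0.0802) and 0.19 (adjusted p = 0.0100). MRPS17 at -0.21, MRPS15 at -0.18 and MRPL28 at -0.14 were called lower with the offsets only. MRPL57 at 0.13 and MRPS30 at 0.12 were called higher with the offsets only. Apart from MRPS18C, these genes were picked after their values were seen. Exon bases shared with another gene were found in 15 members. Among the named ones were also MRPS12 with SARS2 (189 bases), MRPS25 with NR2C2 (957 of 5455) and MRPL20 with LOC148413 (151). Others were MRPS2 with LOC101928525 (250) and MRPL57 with SKA3 (228), and all of these pairs lay on opposite strands.

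Overexpression of ZNF263 left the members without a called change. Of the 76, 0 were called in either direction by edgeR, beside 0.764% of all genes, and 0 by DESeq2. In edgeR 5 members had an unadjusted p under 0.05, beside 1630 of 15437 genes. MRPL2, MRPS2, MRPS26 and MRPL30 were above wild type and MRPL42 was below it. Fitted with the wild type alone, 1 member, MRPL2, was called higher, beside 431 of 14888 genes called. The median log2 fold change was 0.034, beside 0.000 over all genes, and 52 of 76 members were above 0, from -0.093 for MRPL42 to 0.18 for MRPL2 (adjusted p = 0.230).

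Adding ZIC2 to knockout cells changed 1 member. MRPS2, a small subunit protein of bacterial descent, was at 62.6, 66.1 and 63.3 CPM in wild type, 76.8, 79.1 and 79.5 in the knockout, 72.8, 71.0 and 68.0 with ZIC2 and 69.3, 70.3 and 71.5 with ZNF263 overexpression. The 3 libraries with ZIC2 lay between the knockout and wild type without touching either. The change from the knockout was -0.15 (SE 0.042, adjusted p = 0.0261), after a rise of 0.29 (SE 0.043, adjusted p = 1.17e-05) from wild type to knockout, and it was the one member called in opposite directions in these comparisons, which share the knockout libraries. That call was lost without knockout replicate 3 (adjusted p = 0.0919) and without replicate 2 (0.0635) or 3 (0.128) of the ZIC2 group. The other 75 were not called, beside 8.34% of all genes called. In edgeR 3 members had an unadjusted p under 0.05, beside 3079 of 15437 genes. They were MRPS2, MRPL40 (-0.22, adjusted p = 0.0787) and MRPL53 (0.23, adjusted p = 0.108). With GC and length offsets all 3 were called, MRPS2 and MRPL40 lower and MRPL53 higher, beside 2084 of 14696 genes called. The median was -0.032, beside -0.001 over all genes, and moved to 0.011 without knockout replicate 2.

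Against wild type, knockout cells with added ZIC2 had more members higher than lower. Of 76 members 32 were called higher and 5 lower, beside 37.6% of all genes called, 20.3% higher and 17.3% lower, with a median of 0.095. With GC and length offsets 12 were called higher and 7 lower, beside 14.8% and 14.9% of 14696 genes, with a median of 0.016. Without wild-type replicate 3, 20 were called higher on scaled counts. Both comparisons use the wild-type libraries, and 30 of the 35 members higher in the knockout were among these 32, as were 4 of the 5 lower ones. MRPL10, MRPL16, MRPL36, MRPL40 and MRPL55 were called higher in the knockout only, and MRPL53 and MRPL57 with ZIC2 only; those differences are not called in the direct comparison of the 2 knockout groups.

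The highest value belonged to MRPL53, a mitochondria-specific large subunit protein. It was at 13.2, 11.5 and 11.4 CPM in wild type, 13.4, 15.4 and 13.2 in the knockout, 16.01, 17.7 and 15.0 with ZIC2 and 12.1, 12.2 and 13.8 with overexpression. Libraries with ZIC2 were all above wild type and overlapped the knockout. Its change from wild type was 0.43 (SE 0.090, adjusted p = 0.000574), and 0.22 with the offsets (adjusted p = 0.0400). MRPL20 at 0.34, a protein needed early in large subunit assembly in bacteria, MRPL2 at 0.34, MRPS18C at 0.31 and MRPL14 at 0.30 were called with the offsets too, while MRPL23 at 0.31, MRPS34 at 0.31 and MRPL12 at 0.29 were at 0.038, 0.047 and 0.030 with the offsets and were not called. MRPL42 fell by 0.24 and MRPL19 by 0.23, followed by MRPS25 at -0.14, MRPS27 at -0.12 and MRPL3 at -0.098. Of these 5 MRPL19 (-0.15) and MRPS25 (-0.14) were called with the offsets. MRPL3 missed the threshold without replicate 1 (adjusted p = 0.0707) or 3 (0.0877) of the ZIC2 group and without wild-type replicate 1 (0.116) or 2 (0.0535). MRPS27 missed it without replicate 1 of the ZIC2 group (adjusted p = 0.0864) and without wild-type replicate 2 (0.113), and MRPS25 without replicate 2 of the ZIC2 group (0.0640) and without wild-type replicate 2 (0.0539).

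Other genes of mitochondrial translation rose in some cases and fell in others in the knockout. The counts below stand beside 20% of all genes called higher and 18.5% lower. With GC and length offsets these shares were 16.4% and 13.7%. Of 5 proteins of the mitochondrial ribosome that carry other names, AURKAIP1 (0.36) and GADD45GIP1 (0.32) rose, PTCD3, a pentatricopeptide protein of the small subunit, fell (-0.16), and DAP3 (0.014) and CHCHD1 (0.090) were not called. With the offsets 0 of the 5 were called (edgeR). Of 27 genes for ribosome assembly and rRNA modification 9 rose and 2 fell, with MPV17L2 at 0.40, the helicase DHX30 at 0.21 and the rRNA chaperone ERAL1 at 0.19; with the offsets 4 rose and 1 fell. Of 17 translation factors 4 rose and 5 fell, and 2 and 1 did with the offsets. TUFM, the elongation factor that brings aminoacyl-tRNA to the ribosome, rose by 0.30 (0.15 with the offsets, adjusted p = 0.000108), PDF, which removes the formyl group from new chains, by 0.41, and GUF1 fell by 0.22. Of 20 genes that charge mitochondrial tRNAs 3 rose and 2 fell (0 and 2 with the offsets, edgeR), with SARS2 at 0.27, IARS2 at -0.18 and NARS2 at -0.15. Of 23 genes of mitochondrial transcription and RNA processing 6 rose and 6 fell, and 6 and 1 did with the offsets. POLRMT, the mitochondrial RNA polymerase, was at 0.28, LRPPRC at -0.25 and its partner SLIRP at 0.32, each called with the offsets as well.

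Of the 2 mitochondrial rRNAs, the RNA part of the same ribosome, RNR2 fell in the knockout and RNR1 missed the threshold; neither had a GC value for the offsets. RNR2, the large subunit rRNA, fell by 0.29 in the knockout (SE 0.038, adjusted p = 3.39e-06) and by 0.39 in the knockout with ZIC2 against wild type (adjusted p = 6.49e-08). RNR2 took 1.17% to 1.20% of counts in wild type, 0.935% to 0.974% in the knockout, 0.810% to 0.947% with ZIC2 and 1.16% to 1.22% with ZNF263 overexpression. The knockout groups did not overlap the other groups. RNR1, the small subunit rRNA, was at -0.13 in the knockout (adjusted p = 0.0507) and -0.18 with ZIC2 (adjusted p = 0.00754). The libraries were made from poly(A) RNA, and how much rRNA passed that selection was not tested; the nuclear rRNA precursor RNA45S5 took 0.0471% to 0.0729% of counts in wild type and 0.123% to 0.257% in the knockout.

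Genes of 2 related systems had changes of the same kind. Again 20% of all genes were called higher in the knockout and 18.5% lower, and 16.4% and 13.7% with the offsets. Of 78 tested cytosolic ribosomal protein genes 48 were called higher and 1 lower in the knockout, with a median of 0.17, and 36 and 9 with the offsets (median 0.058). RPL28 at 0.46 and RPL8 at 0.38 were among those that rose. Of 75 nuclear genes for respiratory chain and ATP synthase subunits 45 rose and 3 fell (median 0.18), and with the offsets 20 and 2 of 61 (median 0.070); NDUFA13 (0.53) and CYC1 (0.32) were among them. Of 13 transcription regulators of mitochondrial genes 4 rose and 2 fell. MYC, which raises ribosome production in many cells, rose by 0.46 (SE 0.040, adjusted p = 7.89e-09), and by 0.33 with the offsets (adjusted p = 7.68e-10), and was lower with ZIC2 than in the knockout by -0.15 (SE 0.039, adjusted p = 0.0182). GABPA, the DNA-binding subunit of the ETS factor GABP, was at -0.22 (adjusted p = 0.000646) but at -0.014 with the offsets (adjusted p = 0.843), and TFE3 rose by 0.22. Values of knockout with ZIC2 against wild type were of the same sign for these regulators, MYC at 0.31, TFE3 at 0.18 and GABPA at -0.13, and MYCN was at 0.21. In that comparison the highest-ranked genes of the other lists were MRM3 at 0.25, QRSL1 at -0.17, TRMT10C at -0.29, RPS9 at 0.33, ATP5J2 at 0.33 and NDUFA11 at 0.40.

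**Figure D5:**
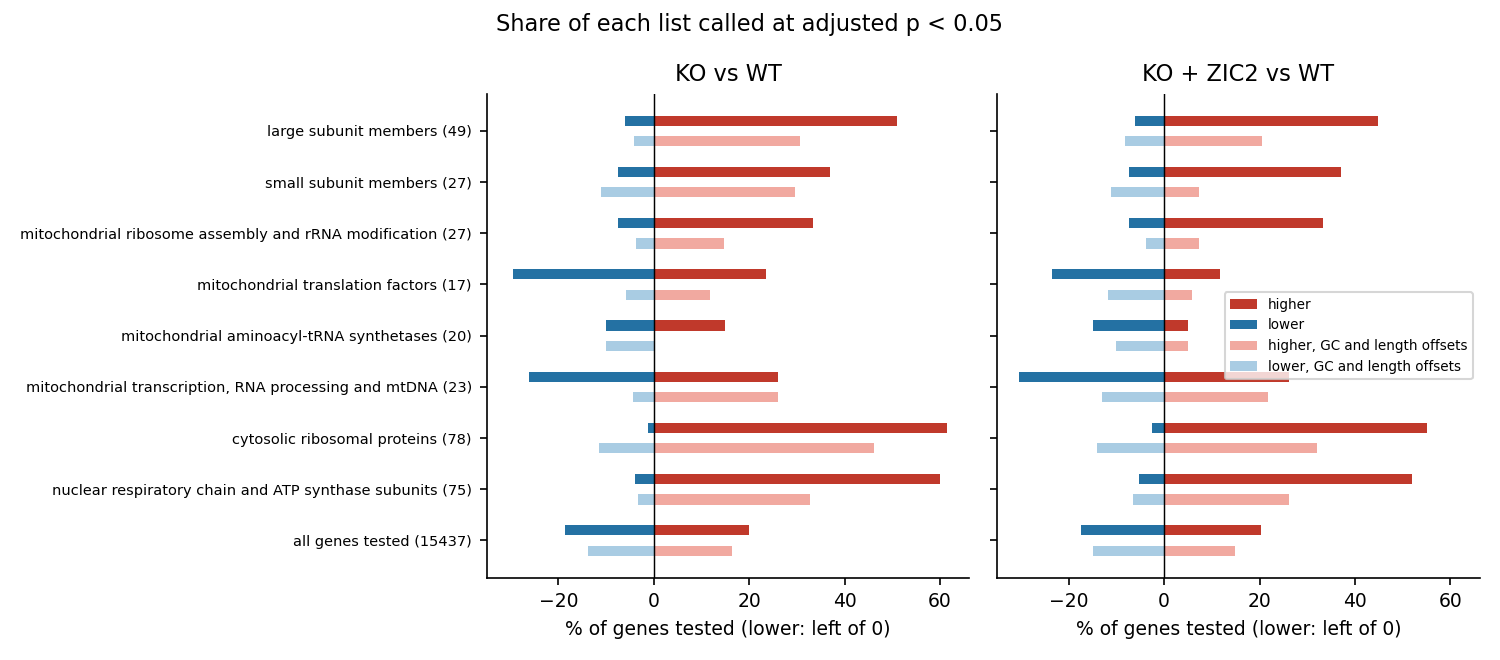
Share of the tested genes of each list called higher (right of 0) or lower (left of 0) against wild type, in the knockout and in the knockout with ZIC2; dark bars use scaled counts, pale bars GC and length offsets, and numbers in brackets count tested genes. In the knockout, 25 of 49 large subunit and 10 of 27 small subunit members are higher, beside 20% of all genes.

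On scaled counts, levels of the members varied together from library to library. Over the 2850 pairs of tested members, the median Pearson correlation of log2 CPM was 0.42 over the 12 libraries and 0.50 for deviations from the group means, that is, between replicates of a group. With GC and length offsets the same medians were 0.092 and 0.098. The points share libraries and depth, and these are descriptions across genes. Pairs of other genes were not examined, so the values do not show a trait particular to the members.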

How the data were processed

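Poly(A) RNA was sequenced from 12 libraries of H1 cells. The authors deposited raw counts per gene, whole numbers with no normalization; per the submitters' processing notes STAR, featureCounts, DESeq2 and hg19 were used, and their versions are not given in the sources used here. Strand is not marked by the library kit named in the labels' protocols. From these counts, edgeR 4.0.16 in R 4.3.3 was run with TMM scaling, filterByExpr and the quasi-likelihood test, 12 libraries in 1 fit by group (8 residual degrees of freedom, common biological coefficient of variation 0.0397). Benjamini-Hochberg adjustment covered all 15437 genes tested, with calls made under 0.05. CPM used TMM-scaled totals; RPKM divided it by the deposited gene length. GC content was the median over GENCODE 29 transcripts matched by symbol, known for 100% of members and 95.2% of tested genes. GC and length offsets were natural splines with 5 degrees of freedom fitted in each library. Code was tested on simulated data. No 2 replicates agreed within sampling noise.

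Members and lists were chosen with earlier results of these data known, and the mitochondrial rRNA list after the table was seen. Named are, per comparison, the called members with the 8 highest and 8 lowest changes, the 4 highest and 4 lowest RPKM, members called in opposite directions, those not tested, and up to 3 called genes per other list by adjusted p. One gene that this rule names is not reported here. The promoters shown belong to the first 2 such risers and fallers with an ETS or YY1 match. Alternatives were RLE, total count and upper quartile scaling, no filter, DESeq2 1.42.0, the 2 groups alone, a replicate block, offsets with and without that block, and each library left out.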

Additional observations from a re-analysis of the deposited data

How the results depend on the processing

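The direction of the members' median in the knockout was kept under every alternative run, from 0.042 to 0.17. With GC and length offsets the knockout had 23 members higher (median 0.042; with the replicate block 23 and 0.043), and the knockout with ZIC2 against wild type 12 (0.016; with the block 14 and 0.015). ZIC2 against the knockout then had 1 higher (MRPL53) and 2 lower (MRPS2 and MRPL40; with the block the same 2 lower), and MRPS2 reversed against wild type in the ZIC2 group, to -0.044 in both; the cause was not tested. Members lower in the knockout were 9 with total count scaling, 3 with 2 groups only and 2 with DESeq2; 2 groups only gave 1 higher (MRPL2) in the overexpression group and 0 lower for ZIC2 against the knockout. Leaving out 1 library, the knockout had 25 to 39 higher and 2 to 7 lower (median 0.089 to 0.17), ZIC2 against the knockout 0 to 1 higher and 0 to 2 lower (-0.072 to 0.011), ZIC2 against wild type 20 to 33 higher and 2 to 7 lower (0.068 to 0.12), and overexpression medians were 0.006 to 0.064. Same-numbered libraries correlated between -0.095 and 0.098, so the numbers do not pair them; with the replicate block the knockout had 34 higher and 5 lower (median 0.14) and ZIC2 against wild type 30 and 5 (0.094). Low counts left MRPS18B and MRPS24 untested.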
